A study of Mus musculus with 12 samples.

Results

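The genes described here are 33 mouse genes that mark striatal medium spiny neurons, measured in 12 RNA-seq libraries that are labelled as hippocampus. They were chosen by symbol, from a list drawn up after earlier results of these libraries were known, for a high level in a mutant THC library. All 33 of 33 symbols had a row among the 23382 rows of the table. Of these rows, 15802 passed the filter on low counts, and they included 32 of the 33 genes. The dopamine receptor gene Drd3 did not pass. Ido1 passed only through the libraries in which it is high.

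The libraries fall into 4 groups of 3: mutant mice given Δ9-THC, mutant mice given vehicle, control mice given Δ9-THC and control mice given vehicle. THC is the main psychoactive compound of cannabis. All mice were on a C57BL/6 background. The labels call the mutants aDN-DISC1, carrying a mutant form of DISC1, a scaffold protein linked to psychiatric illness, and the series title places the genetic vulnerability in astrocytes and the THC exposure in adolescence. The promoter that drives the mutant protein, and the age, sex, dose and litter, are not given in the sources used here. Control libraries were placed by their titles, as they carry no genotype entry. Total RNA was depleted of ribosomal RNA and sequenced as paired ends. Library numbers 1 to 3 within a group are names only. No label says that the 3 libraries in a group were made from different mice, and p-values reflect only how far these libraries differ.

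Medium spiny neurons are the GABA-releasing projection neurons that make up most of the striatum, a forebrain nucleus that does not belong to the hippocampus. Those of the direct pathway carry the D1 dopamine receptor, dynorphin and substance P, and those of the indirect pathway carry the D2 receptor, the adenosine receptor Adora2a and enkephalin. The olfactory-type G protein couples the D1 receptor and Adora2a to adenylyl cyclase, which makes cyclic AMP, while the D2 receptor lowers cyclic AMP. Both kinds carry the phosphoprotein DARPP-32. The hippocampus holds some of these transcripts at lower levels in its own neurons, among them those of Bcl11b, Penk and Drd1.

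One library stood apart from the rest. Mutant THC 3 had the highest level of the 12 libraries for all 33 genes, and 15.9% of all tested genes had their highest level there. In 30 of the 33 genes, all of them tested, its level was at least 2-fold above the highest of the other 11 libraries. The background for that criterion was 212 of 15802 tested genes, or 1.34%. This difference chose the genes, so it is given as a description with no test. The values just outside the criterion were those of Bcl11b, Drd3 and Dlx5, at ratios of 1.39, 1.42 and 1.60, and the value just inside was that of Pdyn, at 2.199. No other library held any of the 33 genes at 2-fold over the rest, and between 0 and 16 of all tested genes met that criterion in each of them.

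A second library shared part of the pattern. Mutant vehicle 3 was above the 10 libraries other than itself and mutant THC 3 in 29 of the 33 genes, or 28 of the 32 tested, where the background was 19.6% of tested genes. The exceptions were Bcl11b, Lrrc10b, Dlx5 and Dlx6, and Drd3 is above them by scaled level only, with 5 counts in mutant vehicle 3 and 5 in control THC 2. The levels summed over the 33 genes came to 9155 CPM (counts scaled to a library of 1e+06 after TMM) in mutant THC 3 and 1675 CPM in mutant vehicle 3, against 966 to 1155 CPM in the other 10 libraries. So 1 of the 3 libraries in each mutant group had a sum above all of the other 10 libraries. These are called the 2 outlying libraries from here on. The highest sum of the 10 was that of mutant THC 2, at 1155 CPM, and the highest control sum was 1135 CPM, in control THC 3. What brought the transcripts into the 2 outlying libraries was not tested. In bulk RNA, more cells of a type and more RNA per cell cannot be told apart.

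**Figure D1:**
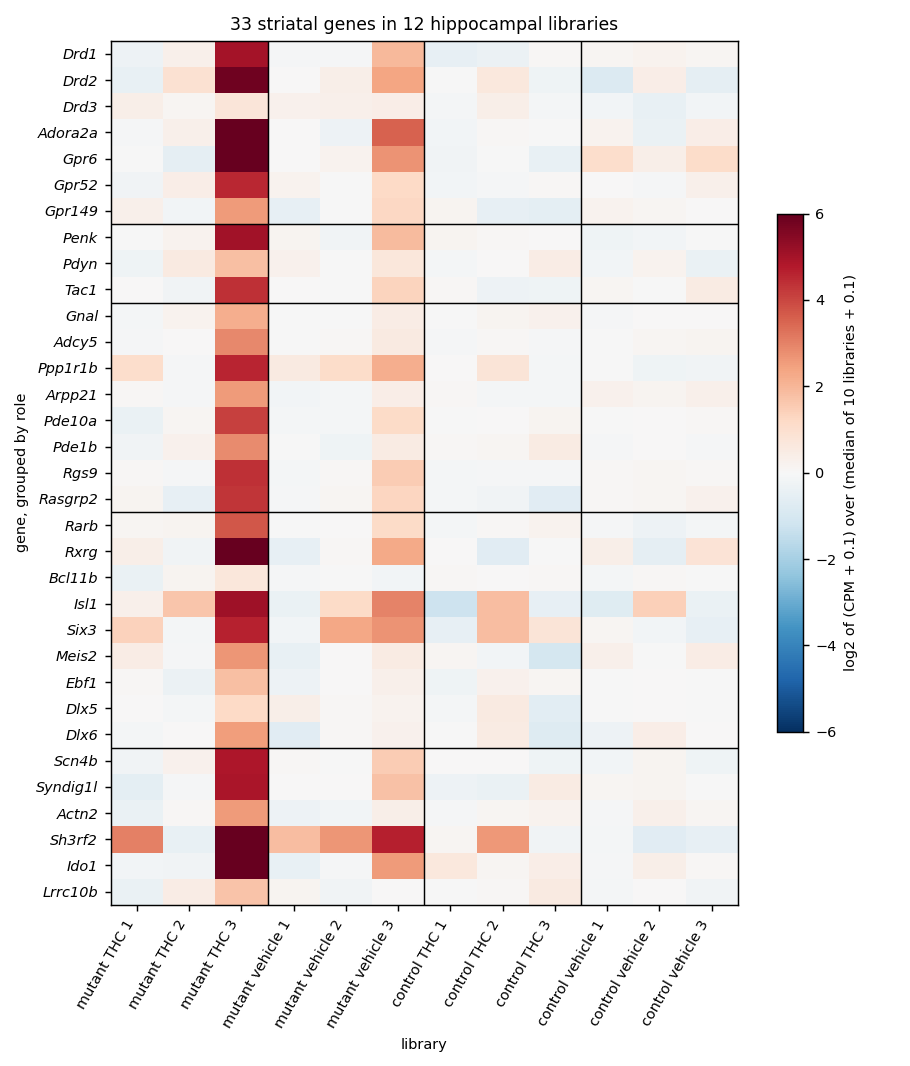
Each row is 1 of the 33 genes, grouped by role, and each column a library; colour gives log2 of the CPM + 0.1 over the median of the 10 libraries other than mutant THC 3 and mutant vehicle 3 (+ 0.1), with 5 values above the colour limit of 6 drawn at the limit. The column of mutant THC 3 is red in nearly every row, that of mutant vehicle 3 is paler red, and the other 10 columns stay near white apart from rows at low levels such as Isl1, Six3 and Sh3rf2.

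The promoters of 4 of the genes are shown because retinoic acid and cyclic AMP signalling are known to act on striatal neurons and the dopamine receptor genes head the list. Sequences come from RefSeq on GRCm38.p6, which had a window for 22 of the 33 genes, in 38 windows of 250 bases before an annotated start. Positions count back from the start, with -1 next to it, and capitals mark the motif. Rarb encodes a retinoic acid receptor and spans 16430839 to 17082331 on chromosome 14. Its window at chr14:16575477-16575726 on the minus strand lies inside that span, before 1 of its annotated starts, and holds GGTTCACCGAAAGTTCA from -53 to -37. These letters match a direct repeat retinoic acid element, GGTTCA and AGTTCA with 5 bases of any kind between them, which was found in 2 of 32851 promoter windows of the same length (0.00609%). Gpr6 encodes an orphan receptor of the indirect pathway, and its window at chr10:41072291-41072540 on the minus strand holds the cyclic AMP response element TGACGTCA from -78 to -71, found in 508 windows (1.55%). The windows of Drd1 (chr13:54054781-54055030, minus strand) and Drd2 (chr9:49340153-49340402, plus strand) each lie before 1 of the gene's annotated starts and run into its span. They hold the GC box GGGCGG, at -133 in Drd1 and, on each strand, in Drd2 with the first match at -93 and the last at -56. This box is common, with a match in 10756 windows (32.7%). Of the 38 windows of the listed genes 11 had a match, in 10 of the 22 genes with a window. Both strands were searched, the matches printed do not overlap each other, and a match is a description of letters only.
Rarb: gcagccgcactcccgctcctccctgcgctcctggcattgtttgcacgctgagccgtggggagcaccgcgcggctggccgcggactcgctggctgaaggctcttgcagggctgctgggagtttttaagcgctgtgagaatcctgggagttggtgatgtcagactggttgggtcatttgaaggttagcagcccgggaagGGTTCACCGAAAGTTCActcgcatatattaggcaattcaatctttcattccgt
Gpr6: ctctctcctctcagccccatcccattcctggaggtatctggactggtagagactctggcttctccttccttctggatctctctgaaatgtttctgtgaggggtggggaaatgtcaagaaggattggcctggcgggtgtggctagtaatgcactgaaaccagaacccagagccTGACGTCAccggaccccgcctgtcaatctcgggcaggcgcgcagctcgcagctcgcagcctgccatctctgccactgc
Drd1: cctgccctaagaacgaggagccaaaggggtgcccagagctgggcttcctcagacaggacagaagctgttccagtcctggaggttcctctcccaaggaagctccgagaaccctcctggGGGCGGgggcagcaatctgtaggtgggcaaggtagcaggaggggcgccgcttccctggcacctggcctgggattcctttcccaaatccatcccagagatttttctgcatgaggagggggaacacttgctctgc
Drd2: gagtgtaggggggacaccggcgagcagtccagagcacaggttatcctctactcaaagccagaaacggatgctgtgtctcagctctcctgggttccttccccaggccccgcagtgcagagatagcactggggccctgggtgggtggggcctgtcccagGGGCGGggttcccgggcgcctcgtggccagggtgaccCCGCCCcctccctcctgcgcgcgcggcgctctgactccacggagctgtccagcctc

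Levels of the receptors are given first, for libraries 1, 2 and 3 of each group in turn. Drd1 encodes the D1 dopamine receptor, which raises cyclic AMP, and lies on chromosome 13 from 54051183 to 54055658. In mutant THC mice Drd1 had 7.69, 11.5 and 302 CPM and in mutant vehicle mice 9.03, 9.05 and 37.1 CPM, against 6.63, 7.28 and 9.78 CPM in control THC mice and 10.2, 10.9 and 10.1 CPM in control vehicle mice. Mutant THC 3 was high, mutant vehicle 3 was next, and the other 10 libraries lay between 6.63 and 11.5 CPM. The mutant groups overlapped the controls through their other 2 libraries. The Drd2 level was 0.57, 1.62 and 52.1 CPM in mutant THC mice and 0.81, 1.05 and 4.57 CPM in mutant vehicle mice, against 0.81, 1.32 and 0.67 CPM in control THC mice and 0.42, 1.101 and 0.52 CPM in control vehicle mice. Drd2 encodes the D2 receptor, which lowers cyclic AMP, and lies on chromosome 9 from 49340360 to 49408177. Both outlying libraries were again the highest, with the rest at 0.42 to 1.62 CPM. Drd3 was at 0.12, 0.09 and 0.18 CPM in mutant THC mice, 0.11, 0.11 and 0.13 CPM in mutant vehicle mice, 0.06, 0.12 and 0.06 CPM in control THC mice and 0.05, 0.03 and 0.05 CPM in control vehicle mice. Drd3 encodes the D3 receptor of the ventral striatum, and its 1 to 7 counts per library are too few to order the libraries.

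In mutant THC mice Adora2a had 1.26, 1.68 and 192 CPM and in mutant vehicle mice 1.34, 1.05 and 16.3 CPM, against 1.17, 1.39 and 1.32 CPM in control THC mice and 1.55, 0.97 and 1.78 CPM in control vehicle mice. Adora2a, on chromosome 10 from 75316877 to 75334792, encodes the adenosine receptor that opposes the D2 receptor in the indirect pathway, and the 10 other libraries stayed within 0.97 to 1.78 CPM. The Gpr6 level was 0.33, 0.20 and 34.02 CPM in mutant THC mice and 0.34, 0.41 and 2.74 CPM in mutant vehicle mice, against 0.28, 0.34 and 0.22 CPM in control THC mice and 0.82, 0.46 and 0.83 CPM in control vehicle mice. Gpr6, a receptor that is active without a known ligand in the same neurons, was likewise below 1 CPM everywhere but in the 2 outlying libraries. Gpr52, an orphan receptor coupled to cyclic AMP, was at 32.9 CPM in mutant THC 3 and 3.17 CPM in mutant vehicle 3, against 1.14 to 1.76 CPM in the other 10. Gpr149, an orphan receptor, was at 5.498 CPM in mutant THC 3 and 2.13 CPM in mutant vehicle 3, against 0.53 to 1.05 CPM in the other 10. Of the 7 receptors, 6 were at least 2-fold over the highest other library in mutant THC 3 and the 6 besides Drd3 were above the 10 in mutant vehicle 3.

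The 3 neuropeptide precursors behaved alike in rank but not in size. Penk encodes proenkephalin, the opioid peptide precursor of the indirect pathway, on chromosome 4 from 4133536 to 4138815. Penk was at 15.95, 19.2 and 531 CPM in mutant THC mice, 18.5, 13.8 and 60.7 CPM in mutant vehicle mice, 18.4, 16.9 and 16.6 CPM in control THC mice and 13.7, 14.6 and 15.8 CPM in control vehicle mice. In mutant THC mice Tac1 had 6.16, 5.201 and 129.99 CPM and in mutant vehicle mice 6.27, 6.05 and 15.4 CPM, against 6.33, 4.95 and 5.13 CPM in control THC mice and 6.66, 6.07 and 8.504 CPM in control vehicle mice. Tac1, on chromosome 6 from 7555061 to 7562978, encodes the precursor of substance P in the direct pathway. The Pdyn level was 3.67, 6.57 and 15.6 CPM in mutant THC mice and 5.36, 4.32 and 7.103 CPM in mutant vehicle mice, against 4.12, 4.61 and 6.196 CPM in control THC mice and 3.98, 5.104 and 3.39 CPM in control vehicle mice. Pdyn encodes prodynorphin, which granule cells of the hippocampus also make. In each of the 3 genes mutant THC 3 was highest and mutant vehicle 3 second, but for Pdyn the gap from mutant vehicle 3 to the next library (mutant THC 2) was small. Mutant THC 3 stood 2.199-fold over the highest other library for Pdyn and 8.75-fold for Penk, the ends of the range for the peptides.

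**Figure D2:**
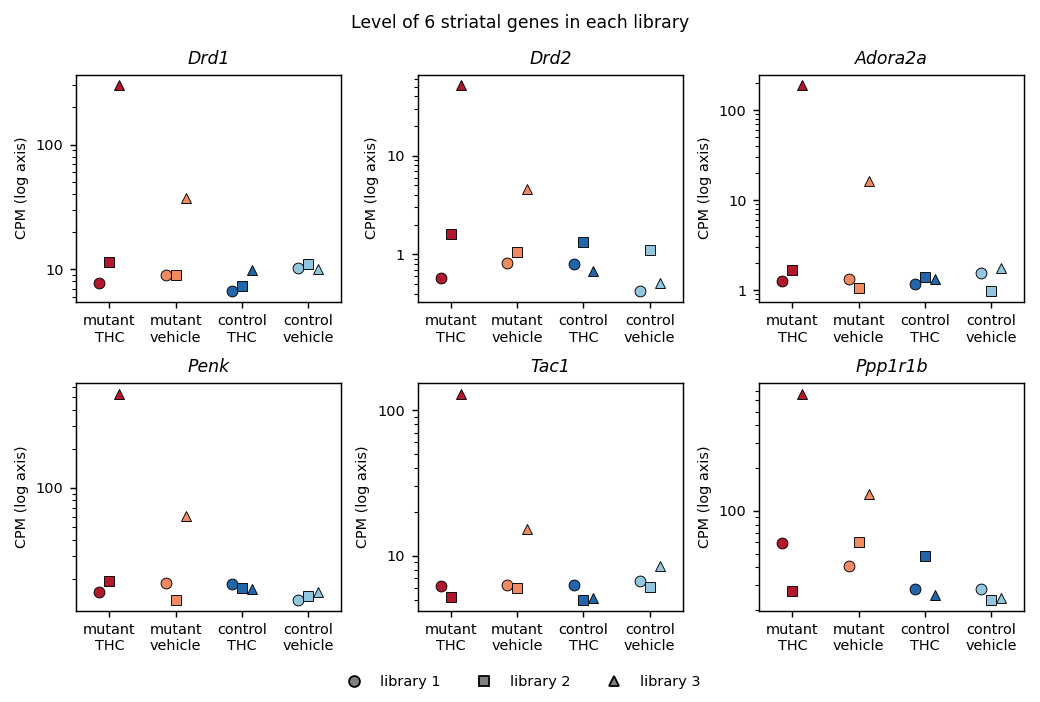
Each panel plots the level of 1 gene in CPM on a log axis for the 12 libraries, with the groups side by side and the symbol giving the library number within its group. In all 6 panels the triangle of the mutant THC group is the highest point (302 CPM for Drd1, 669 CPM for Ppp1r1b) and the triangle of the mutant vehicle group is the second highest.

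The 8 signalling genes carry or end dopamine and adenosine signals inside the cell. Ppp1r1b encodes DARPP-32, an inhibitor of protein phosphatase 1 under the control of dopamine, on chromosome 11 from 98348406 to 98357796. Ppp1r1b was at 59.4, 27.1 and 669 CPM in mutant THC mice, 41.01, 60.5 and 131 CPM in mutant vehicle mice, 28.4, 48.4 and 25.7 CPM in control THC mice and 28.2, 23.5 and 24.5 CPM in control vehicle mice. Besides the 2 outlying libraries, mutant THC 1, mutant vehicle 1 and 2 and control THC 2 were higher than the 6 others. In mutant THC mice Gnal had 105, 133 and 524 CPM and in mutant vehicle mice 111, 112 and 154 CPM, against 112, 127 and 137 CPM in control THC mice and 109.6, 116 and 116 CPM in control vehicle mice. Gnal encodes the olfactory-type G protein alpha subunit, which couples the D1 and adenosine receptors to the cyclase. The Adcy5 level was 87.4, 92.9 and 682 CPM in mutant THC mice and 89.8, 96.7 and 133 CPM in mutant vehicle mice, against 87.8, 96.99 and 86.7 CPM in control THC mice and 91.3, 99.8 and 104 CPM in control vehicle mice. Adcy5 encodes the main adenylyl cyclase of the striatum. Pde10a was at 67.8, 95.8 and 1527 CPM in mutant THC mice, 81.96, 82.1 and 197 CPM in mutant vehicle mice, 88.5, 90.8 and 99.3 CPM in control THC mice and 88.5, 91.3 and 94.2 CPM in control vehicle mice. Pde10a encodes a phosphodiesterase that breaks down cyclic nucleotides. Across Gnal, Adcy5 and Pde10a the 10 other libraries lay close together, and mutant vehicle 3 was above them in each gene. In mutant THC mice Rgs9 had 16.1, 15.04 and 331 CPM and in mutant vehicle mice 14.3, 16.1 and 45.2 CPM, against 14.5, 14.8 and 14.97 CPM in control THC mice and 16.4, 17.005 and 16.4 CPM in control vehicle mice. Rgs9, a regulator that shortens G protein signals in striatal neurons, was at 14.3 to 17.0 CPM in the 10 other libraries, so mutant vehicle 3 was clear of all of them. Pde1b, a calcium-dependent phosphodiesterase, was at 1079 CPM in mutant THC 3 and 215 CPM in mutant vehicle 3, against 128 to 213 CPM in the other 10. Rasgrp2, an activator of the small GTPase Rap, was at 122 CPM in mutant THC 3 and 15.2 CPM in mutant vehicle 3, against 3.73 to 7.21 CPM in the other 10. Arpp21, a phosphoprotein regulated by cyclic AMP, was at 802 CPM in mutant THC 3 and 177 CPM in mutant vehicle 3, against 121 to 169 CPM in the other 10. All 8 signalling genes were at least 2-fold over the highest other library in mutant THC 3, at ratios of 3.39 to 8.04.

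The 9 transcription factor genes were the most varied, with ratios of 1.39 to 14.0 to the highest other library. The Isl1 level was 0.27, 0.85 and 10.3 CPM in mutant THC mice and 0.13, 0.57 and 2.26 CPM in mutant vehicle mice, against 0.03, 0.98 and 0.11 CPM in control THC mice and 0.08, 0.70 and 0.13 CPM in control vehicle mice. Isl1 directs the direct pathway fate, and besides the 2 outlying libraries it was at 0.57 to 0.98 CPM in 4 libraries, 1 in each group, and at 0.27 CPM or less in the other 6. Six3 was at 0.27, 0.03 and 3.36 CPM in mutant THC mice, 0.03, 0.59 and 0.81 CPM in mutant vehicle mice, 0.00, 0.41 and 0.14 CPM in control THC mice and 0.05, 0.03 and 0.00 CPM in control vehicle mice. Six3 acts in neurons of the indirect pathway and was near 0 in most libraries, so its ratio to them rests on very few counts. In mutant THC mice Meis2 had 52.7, 37.3 and 242 CPM and in mutant vehicle mice 28.5, 39.7 and 55.6 CPM, against 42.9, 34.8 and 18.8 CPM in control THC mice and 47.6, 38.4 and 53.97 CPM in control vehicle mice. Meis2, a homeobox gene of the striatal lineage, varied between 18.8 and 54.0 CPM in the 10 other libraries, and mutant vehicle 3 was barely above control vehicle 3. Rxrg, a retinoid receptor, had the highest ratio to the next library among the 33 genes, with 103 CPM in mutant THC 3 and 7.36 CPM in mutant vehicle 3, against 0.86 to 2.64 CPM in the other 10. Rarb was at 97.7 CPM in mutant THC 3 and 16.4 CPM in mutant vehicle 3, against 5.88 to 8.41 CPM in the other 10. Ebf1, a factor of the direct pathway, was at 6.35 CPM in mutant THC 3 and 2.23 CPM in mutant vehicle 3, close to the 2.14 CPM of the highest of the other 10.

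Bcl11b, which encodes CTIP2 and is also made by hippocampal neurons, was at 304 CPM in mutant THC 3 and 172 CPM in mutant vehicle 3, against 147 to 218 CPM in the other 10, so mutant vehicle 3 lay within their range. Dlx5 and Dlx6 are homeobox genes of GABA neurons. Dlx5 was at 2.53 CPM in mutant THC 3 and 1.24 CPM in mutant vehicle 3, against 0.64 to 1.59 CPM in the other 10. Dlx6, whose locus also gives an antisense transcript that counting without strand would not separate, was at 9.19 CPM in mutant THC 3 and 1.85 CPM in mutant vehicle 3, against 0.84 to 2.14 CPM in the other 10. The 4 genes in which mutant vehicle 3 did not stand above the 10 were thus these 3 and Lrrc10b, at 254 CPM in mutant THC 3 and 79.1 CPM in mutant vehicle 3, against 59.2 to 112 CPM.

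The 6 other genes have varied roles. Scn4b, a sodium channel beta subunit, was at 877 CPM in mutant THC 3 and 88.4 CPM in mutant vehicle 3, against 25.04 to 36.5 CPM in the other 10. Actn2, an actin-binding alpha-actinin of dendritic spines, was at 62.2 CPM in mutant THC 3 and 13.3 CPM in mutant vehicle 3, against 7.90 to 12.9 CPM in the other 10. Syndig1l, a membrane protein of the striatum, was at 87.9 CPM in mutant THC 3 and 9.79 CPM in mutant vehicle 3, against 1.83 to 4.09 CPM in the other 10. These 3 genes kept the order of the receptors and peptides. Ido1, an enzyme of tryptophan breakdown, was at 16.6 CPM in mutant THC 3 and 1.32 CPM in mutant vehicle 3, against 0.08 to 0.28 CPM in the other 10. The Sh3rf2 level was 1.92, 0.09 and 48.4 CPM in mutant THC mice and 0.81, 1.46 and 6.16 CPM in mutant vehicle mice, against 0.17, 1.42 and 0.11 CPM in control THC mice and 0.13, 0.05 and 0.08 CPM in control vehicle mice. Sh3rf2, which encodes a ubiquitin ligase, had the largest ratio to the median of the 10 (324-fold), but that median is 0.15 CPM and 4 of the 10 libraries were well above it.

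Relative to the median of the 10 other libraries, the 33 levels in mutant THC 3 had a median ratio of 19.96, with 26 genes at 5-fold or more, 19 at 10-fold or more and 8 at 50-fold or more. How many of all tested genes passed these folds was not counted. Over all tested genes the median ratio was 0.994, a value that the TMM scaling holds near 1. The 4 genes at 100-fold or more were Sh3rf2 (324), Adora2a (144), Ido1 (114) and Gpr6 (100.4). The 6 genes of the indirect pathway (Drd2, Adora2a, Penk, Gpr6, Gpr52, Six3) had a median ratio of 73.5 and the 5 of the direct pathway (Drd1, Pdyn, Tac1, Isl1, Ebf1) one of 21.3. A ratio of this kind also depends on how much of each transcript the 10 libraries held. In mutant vehicle 3 the median ratio over the 33 genes was 2.48, with 0.993 over all tested genes.

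The excess of a gene over the median of the 10 libraries was then compared between the 2 outlying libraries. For the 29 genes in which mutant vehicle 3 was above all 10, its excess was a median of 8.13% of that in mutant THC 3, with quartiles of 7.13% and 10.2%. For 23 of the 29 genes the share lay between 5% and 15%. Across the 29 genes, log2 excess in the 2 libraries had a Pearson r of 0.976, a description over genes that share the same 2 libraries. The genes above that band were Drd3 (51.1%), Gpr149 (27.6%), Pdyn (23.6%), Six3 (23.3%), Isl1 (20.4%) and Ppp1r1b (16.0%). The first 5 had levels under 20 CPM in every library, and Ppp1r1b also varied among the 10 other libraries. The median share was 7.59% for the indirect pathway and 10.2% for the direct pathway, with ranges of 5.86% to 23.3% and 7.47% to 23.6% that overlap.

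**Figure D3:**
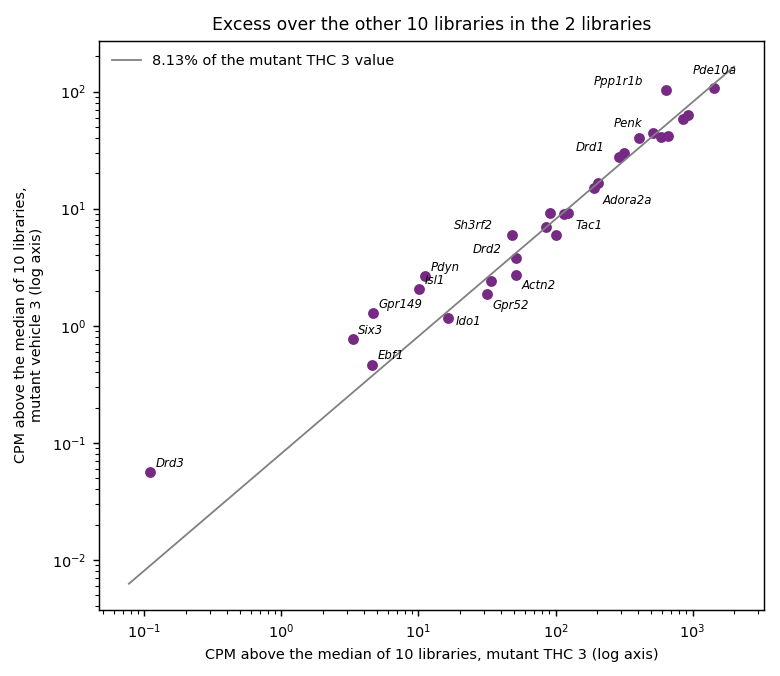
Each point is 1 of the 29 genes; the x axis gives its CPM above the median of the 10 other libraries in mutant THC 3 and the y axis the same in mutant vehicle 3, both on log axes, and the line marks 8.13% of the mutant THC 3 value. Most points lie along the line over the whole range of levels, with Drd3, Gpr149, Pdyn, Six3, Isl1 and Ppp1r1b above it.

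To compare genes with each other, levels were divided by the mean transcript length in kilobases. In mutant THC 3 the most abundant transcripts per kilobase were Penk (367 CPM per kb), Pde1b (335), Ppp1r1b (334), Arpp21 (280) and Pde10a (197). In the 10 other libraries the order was different, and the highest medians were those of Pde1b (47.5 CPM per kb), Arpp21 (47.3), Lrrc10b (36.7), Bcl11b (34.9) and Gnal (24.8). The ratio of Adora2a to Drd1 per kilobase was 0.863 in mutant THC 3 and 0.596 in mutant vehicle 3, against 0.120 to 0.260 in the other 10, with no overlap. The ratio of Penk to Tac1 was 3.47 in mutant THC 3 and 3.35 in mutant vehicle 3, against 1.58 to 3.13 in the other 10. The ratio of Drd2 to Drd1 was 0.239 in mutant THC 3 and 0.170 in mutant vehicle 3, inside the 0.0571 to 0.251 of the other 10.

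Other genes known from the striatum were also high in these libraries. Of 32 further striatal genes, all tested, 28 were highest of the 12 libraries in mutant THC 3 (background 15.9% of tested genes). There 19 of the 32 were at least 2-fold over the highest other library (background 1.34%). In mutant vehicle 3, 13 were above all 10 (background 19.6%). Their median ratios to the median of the 10 were 3.58 in mutant THC 3 and 1.22 in mutant vehicle 3. Cd4, a gene best known as that of a T cell coreceptor, was at 30.3 CPM in mutant THC 3 and 3.58 CPM in mutant vehicle 3, against 0.06 to 0.27 CPM in the other 10. Nexn, an actin-binding protein gene, was at 14.5 CPM in mutant THC 3 and 2.44 CPM in mutant vehicle 3, against 0.14 to 0.55 CPM in the other 10. At the low end Eya1 was at 15.8 CPM in mutant THC 3, below the 18.1 to 24.0 CPM of the 10. Cnr1, the cannabinoid receptor on which THC acts, is outside the naming rule and was looked up after the values were seen. It was at 687 CPM in mutant THC 3 and 328 CPM in mutant vehicle 3, against 306 to 355 CPM in the other 10. Of the 212 tested genes at least 2-fold over the highest other library in mutant THC 3, 30 were among the 33, 19 were in this further striatal list and 156 were in none of the lists used.

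Genes of the dopamine and cyclic AMP pathway that are not particular to the striatum lay on both sides of the other libraries. Of 27 tested, 11 were highest of the 12 libraries in mutant THC 3 (background 15.9% of tested genes) and 11 were lowest. How many of all tested genes were lowest there was not counted. The median ratio of the 27 was 0.98. Ric8b, a chaperone of the olfactory-type G protein, had a ratio of 3.15 and the kinase subunit gene Prkar2b one of 2.75. Adcy1 and Adcy8, adenylyl cyclases that are abundant in hippocampal neurons, had ratios of 0.557 and 0.612.

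Markers of other cells were set beside these values, and their part in the results was not tested. The 6 cholinergic neuron genes summed to 49.3 CPM in mutant THC 3 and 4.49 CPM in mutant vehicle 3, against 1.003 to 2.19 CPM in the other 10. Chat, the enzyme that makes acetylcholine, was at 13.2 CPM in mutant THC 3 and 0.888 CPM in mutant vehicle 3, against 0.03 to 0.14 CPM in the other 10. The 8 GABA interneuron genes had a median ratio of 0.799 in mutant THC 3. The 22 genes of hippocampal excitatory neurons had a median ratio of 0.627 there, with 15 of them lowest of the 12 libraries, and they summed to 1172 CPM in mutant THC 3 and 1393 CPM in mutant vehicle 3, against 1414 to 2024 CPM in the other 10. The exception among them was Coch, at 102 CPM in mutant THC 3 and 22.6 CPM in mutant vehicle 3, against 6.57 to 17.0 CPM. The sums over the 22 genes were lowest in the 2 libraries in which the 33 genes were highest, but in mutant vehicle 3 only by little. There the median ratio was 0.875, and 4 of the 22 genes were below all 10 other libraries. The lowest sum of the 10, 1414 CPM, was that of mutant THC 1, which also had the lowest sum over the 33 genes, at 966 CPM. The share of all tested genes at such lows was not counted. The 8 midbrain dopamine neuron genes summed to 119 CPM in mutant THC 3 and 133 CPM in mutant vehicle 3, against 123 to 156 CPM in the other 10. Of the 6 tested, 1 was highest (background 15.9%) and 1 lowest of the 12 libraries in mutant THC 3, with a median ratio of 1.002. The highest was Th, the enzyme that starts dopamine synthesis, at 3.59 CPM in mutant THC 3 and 0.736 CPM in mutant vehicle 3, against 0.14 to 0.78 CPM in the other 10.

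The choroid plexus, an epithelium in the ventricles, also differed between libraries. Its 16 genes summed to 5046 CPM in mutant THC 3 and 17086 CPM in mutant vehicle 3, against 330 to 10649 CPM in the other 10. Ttr was at 5969, 33.97 and 2857 CPM in mutant THC mice, 3639, 5241 and 9979 CPM in mutant vehicle mice, 48.5, 5090.03 and 54.3 CPM in control THC mice and 53.4, 20.1 and 84.4 CPM in control vehicle mice. Ttr encodes transthyretin, its main product. Of the 10 other libraries, 4 had Ttr above 1000 CPM (mutant THC 1, mutant vehicle 1 and 2 and control THC 2) and 6 did not. Between those libraries 2 of the 32 tested genes, Ppp1r1b and Sh3rf2, were higher without overlap in the 4 with high Ttr. That share was near the background of 6.11% of tested genes. None of the 32 was lower without overlap, where the background was 1.71%. The 8 oligodendrocyte genes summed to 7275 CPM in mutant THC 3 and 6969 CPM in mutant vehicle 3, against 3425 to 6542 CPM in the other 10. Of 7 thalamic genes tested, 5 were above all 10 libraries in mutant vehicle 3 (background 19.6%) and none was highest in mutant THC 3 (background 15.9%).

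**Figure D4:**
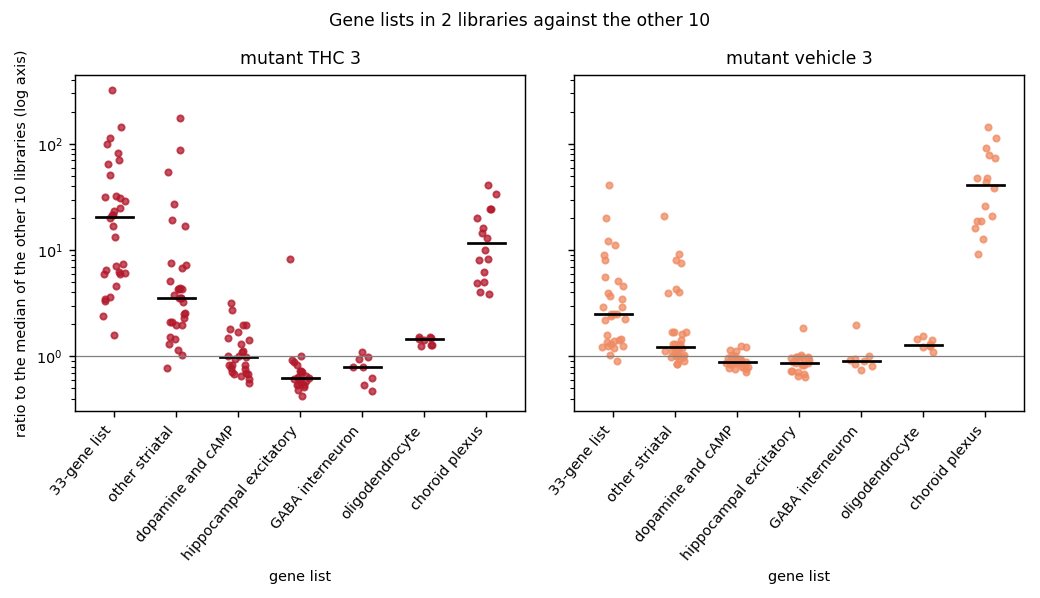
Each point is 1 tested gene, placed by its gene list on the x axis, and the y axis (log) gives its ratio to the median of the 10 other libraries in mutant THC 3 (left panel) and mutant vehicle 3 (right panel); black bars are medians. The 33-gene list has medians of 20.6 and 2.498 over its 32 tested genes, and the hippocampal excitatory list lies mostly below 1. The choroid plexus list has medians of 11.6 and 41.2, but 4 of the 10 other libraries also had Ttr above 1000 CPM. None of its 16 genes was highest of the 12 libraries in mutant THC 3.

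The genes whose pattern over the 12 libraries was most like the mean of the 33 were sought among 14025 other genes with a mean of at least 1 CPM. The likeness was measured by Pearson's r of log2 CPM, and it rests on the 2 outlying libraries. The 20 genes with the highest r, from 0.991 to 0.967, were Klhl13, Syt6, Prkch, Crybg3, Fancb, Dach1, Akap9, Zfp503, Arpp19, Ivns1abp, Spock3, Kcna5, Ric8b, Slc5a7, Brca1, Mapkap1, Cd4, Entpd3, Me2 and Rps6ka5. Only Zfp503 and Cd4 of these were in the further striatal list. Syt6 was in a list of neocortical layer genes, Slc5a7 in the cholinergic list and Ric8b in the dopamine and cyclic AMP list. Of 15 neocortical layer genes tested, 6 were highest (background 15.9%) and 4 lowest of the 12 libraries in mutant THC 3, with a median ratio of 1.08. Klhl13, an adaptor of a ubiquitin ligase, was at 175 CPM in mutant THC 3 and 65.0 CPM in mutant vehicle 3, against 39.0 to 46.2 CPM in the other 10. Dach1, a transcription cofactor, was at 71.9 CPM in mutant THC 3 and 12.9 CPM in mutant vehicle 3, against 4.43 to 7.76 CPM in the other 10. Among the 33 themselves, the r of a gene with the mean of the others was highest for Rgs9 (0.995) and lowest for Bcl11b (0.690).

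The question of the study's design, whether THC and the mutation alter hippocampal transcription alone and together, was then put to the 33 genes. With all 12 libraries, the THC effect in mutant mice had a median log2 fold change of 1.91 over the 32 tested genes, and all 32 were above 0. Of them 27 had a log2 fold change of 1 or more, where the background was 0.816% of tested genes. The mutation effect under THC had a median of 2.78, with 32 of 32 above 0 and 27 at 1 or more (background 1.47%). The mutation effect under vehicle had a median of 0.48, with 27 above 0 and 8 at 1 or more (background 3.84%). The interaction had a median of 1.66, with 30 above 0 and 24 at 1 or more (background 1.5%). The rule that chose the genes used these libraries, so these values are a description with no test.

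The standard errors were large, and 1 library per mutant group held the high values. For Adora2a the log2 fold change of THC against vehicle in mutants was 3.38 ± 1.69 (SE, n = 3 each), for Drd2 it was 3.07 ± 1.38 and for Drd1 2.54 ± 1.21. Penk had 2.61 ± 1.19 and Ppp1r1b 1.70 ± 0.986. No gene of the 33 was without overlap between THC and vehicle mutants, in either direction, where the background was 4.07% higher and 4.4% lower. Rgs9 was without overlap higher in mutant THC than in control THC mice, where the background was 4.83%, and none was lower (5.7%). Of the 32 tested genes, Ppp1r1b, Rarb, Dlx5 and Sh3rf2 were higher without overlap in mutant vehicle than in control vehicle mice, against a background of 15.3%. None of the 32 was lower (12.7%). The edgeR test with Benjamini-Hochberg adjustment called 0 of 15802 genes for THC in mutants (906 at an unadjusted p under 0.05, and 3 called by DESeq2) and 1 gene, Prm1, which is none of the 33, for the mutation under THC and under vehicle (0.00633% each). For the interaction it called 0 genes (1041 at an unadjusted p under 0.05, and 34 called by DESeq2).

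Without mutant THC 3 and mutant vehicle 3, the median log2 fold changes over the 31 genes that passed the filter were near 0 in the same comparisons. For THC in mutants the median log2 fold change was 0.08, with 0 of 31 at 1 or more (background 0.265%). For Adora2a it was 0.30 ± 0.308 (edgeR adjusted p = 1.0) and for Drd1 0.09 ± 0.214 (edgeR adjusted p = 1.0, n = 2 against 2). For Penk it was 0.12 ± 0.147 and for Ppp1r1b -0.23 ± 0.405. The median was 0.05 for the mutation under THC, -0.08 for the mutation under vehicle and 0.0096 for the interaction. Sh3rf2 and Six3, both at low levels, lay far from these medians. For the mutation under vehicle they were the 2 of 31 genes at 1 or more (background 3.08%), with 3.64 ± 1.39 for Sh3rf2 (edgeR adjusted p = 0.478) and 3.38 ± 1.65 for Six3 (edgeR adjusted p = 0.512). For the interaction Sh3rf2 had -2.87 ± 1.86 and Six3 -3.75 ± 2.2, and for THC in mutants Six3 had -1.05 ± 1.43 (edgeR adjusted p = 1.0 for each). The edgeR test called 0 of the 31 genes and 0 of 15852 genes in each of the 5 comparisons, while DESeq2 called 1 gene for THC in mutants, 57 for THC in controls, 4 for the mutation under THC, 19 under vehicle and 4 for the interaction.

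**Figure D5:**
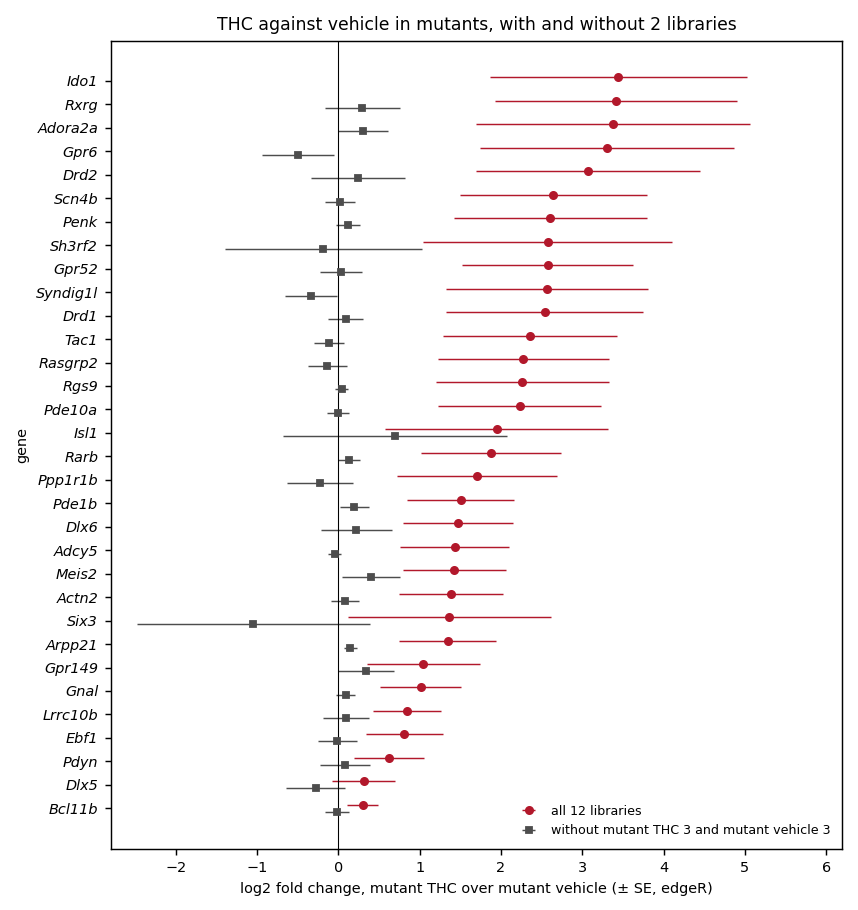
Points give the log2 fold change of mutant THC over mutant vehicle for each gene, with bars of 1 SE from edgeR, from all 12 libraries (circles) and without mutant THC 3 and mutant vehicle 3 (squares; Ido1 has no square). The circles lie between 0.30 and 3.44 with wide bars, and the squares lie between -1.05 and 0.70.

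At an unadjusted p under 0.05, the fit of 10 libraries held 0 of 31 genes for THC in mutants (background 2.53%), 0 for the mutation under THC (3.87%), 1 for the interaction (3.6%) and 5 for the mutation under vehicle (10.3%). Those 5 were Arpp21, Ppp1r1b, Sh3rf2, Gpr6 and Actn2. Ppp1r1b had a log2 fold change of 0.99 ± 0.367 (edgeR adjusted p = 0.478), with mutant vehicle 1 and 2 both above the 3 control vehicle libraries. Both of those mutant libraries are among the 4 with high Ttr and none of the control vehicle libraries is, so choroid plexus level and genotype cannot be told apart in this contrast. With all 12 libraries DESeq2 called Sh3rf2 among the 33 for the mutation under vehicle (background 4.94%). That contrast includes mutant vehicle 3, at 6.16 CPM for this gene against 0.81 and 1.46 CPM in mutant vehicle 1 and 2. The choice of genes used these libraries, so nothing is drawn from the call. In the fit of 10, Arpp21 had -0.38 ± 0.0769 in the same contrast (edgeR adjusted p = 0.478), and among the 33 genes DESeq2 called it alone (adjusted p = 0.0144, background 0.12%).

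THC in control mice is the comparison that the choice of genes did not use. Over the tested genes the median difference between control THC and control vehicle mice was small, while some single genes differed without overlap. With all 12 libraries the median log2 fold change was 0.02, with 17 of 32 genes above 0 and 2 at 1 or more (background 1.55%). The edgeR test called 0 of 32 genes and 0 of 15802 genes (1106 at an unadjusted p under 0.05). DESeq2 called 12 genes (0.0759%) and none of the 33. In the edgeR fit 0 of 32 had an unadjusted p under 0.05 (background 7%). That fit estimated the spread of each gene over all 4 groups, the 2 outlying libraries included. For Arpp21 the standard error was 0.585, against 0.0681 in the fit of 10 libraries. The lack of small p-values among these genes therefore says little. The 5 genes with the smallest p-values were Six3 (2.70 ± 2.29, edgeR adjusted p = 0.822), Sh3rf2 (2.70 ± 2.64, edgeR adjusted p = 0.862), Meis2 (-0.53 ± 0.632, edgeR adjusted p = 0.889), Lrrc10b (0.33 ± 0.417, edgeR adjusted p = 0.896) and Gpr6 (-1.31 ± 1.94, edgeR adjusted p = 0.917). For Six3 and Sh3rf2 control THC 2 held the difference, and both genes were at 0.17 CPM or less in the other 5 control libraries. When edgeR was fitted to the control groups alone, 7 of 28 genes had an unadjusted p under 0.05, against 1544 of all 15418 genes tested. None was called in that fit.

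The control groups did not overlap in 7 of the 32 genes. Penk and Pde1b were higher in each control THC library than in each control vehicle library, where the background was 8.3%, and Drd1, Gpr6, Rgs9, Rasgrp2 and Arpp21 were lower in each (background 8.07%). In the fit of 10 libraries, whose standard errors were smaller, 6 of 31 genes had an unadjusted p under 0.05 (background 9.17%), and all 6 were lower under THC. Gpr6 had a log2 fold change of -1.30 ± 0.335 and Arpp21 one of -0.31 ± 0.0681 (edgeR adjusted p = 0.471 for both). Rgs9 had -0.17 (edgeR adjusted p = 0.523) and Tac1 -0.37 (edgeR adjusted p = 0.524), and the other 2 were Rasgrp2 and Drd1. Among the 33 genes DESeq2 called Arpp21 alone in this fit (adjusted p = 0.0188, background 0.36%). Gpr6 was at 0.22 to 0.34 CPM in control THC mice, against 0.46 to 0.83 CPM in control vehicle mice, levels at which a library holds few counts.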

How the data were processed

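The table the authors deposited holds expected counts by RefSeq transcript, per the file headers, with no scaling for depth or length. Tools named in the submitters' processing notes include RSEM 1.2.21 and Bowtie2 2.2.2, with the build mm10. Use of strand in counting is not stated. Between 27.2% and 29.4% of values per library were not whole, since RSEM shares ambiguous reads, so near-identical or overlapping genes are uncertain. Total expected counts were 33165903 to 41389957 per library, which sets the precision of low genes, and no library repeated another.

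Symbols came from RefSeq for 23011 of 23382 rows and from GENCODE for 129 more. 7 rows held several symbols, and 235 rows with none held 0.727% of the counts. Coordinates are on GRCm38.p6 (mm10).

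The members and all gene lists were chosen with earlier results of these data known. Expected counts were rounded, filtered with filterByExpr (15802 genes kept), scaled with TMM and tested with edgeR 4.0.16 under R 4.3.3 (quasi-likelihood F test, robust glmQLFit) in a model of 4 group means over 12 libraries, with 8 residual degrees of freedom. P-values were adjusted over all tested genes by Benjamini-Hochberg, with a threshold of 0.05. The fit without mutant THC 3 and mutant vehicle 3 kept 15852 genes and 6 residual degrees of freedom. CPM are counts scaled to a library of 1e+06 after TMM, and log2 CPM used a prior count of 2. Alternatives were DESeq2 1.42.0 (its test, and its size factors in edgeR), no filter, fits of the compared groups alone, and leaving out each of the 12 libraries in turn. The fit of 10 libraries with DESeq2 was added after the data were seen.

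Values in every library are printed for 16 members set down by name, for Sh3rf2 because its ratio was the largest, and for Ttr. Other members are given by range. In the THC effect in control mice the 5 members with the smallest p-values are named, and from other lists the 3 genes with the largest and the 2 with the smallest ratio of mutant THC 3 to the other mutant THC libraries may be named. On data simulated for the THC effect in control mice, with 200 of 15716 genes changed, the edgeR step found 47.8% of genes changed 1.5-fold, 73.1% of those changed 2-fold and 95.5% of those changed 4-fold. 1 gene of the further striatal list that this rule would name is not reported here.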

Additional observations from a re-analysis of the deposited data

How the results depend on the processing

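No member was called by edgeR in any of the 5 comparisons under any alternative, each left-out library included (0 to 0). DESeq2 with 12 libraries called 1, Sh3rf2, for the mutation under vehicle (5.01 ± 1.65, DESeq2 adjusted p = 0.0487). That contrast includes outlying mutant vehicle 3 and libraries used to choose the genes, so nothing is drawn from the call. Counts of genes called depended on the test: DESeq2 called 3 for THC in mutants, 12 for THC in controls, 7 for the mutation under THC, 781 for the mutation under vehicle and 34 for the interaction, where edgeR called 0, 0, 1, 1 and 0. A fit of the compared groups alone called 0 for the mutation under THC and 523 for the mutation under vehicle. Without mutant THC 3 and mutant vehicle 3, edgeR called 0 for the mutation under THC and 0 under vehicle, and the median member log2 fold change was 0.08 for THC in mutants, 0.05 for the mutation under THC and 0.0096 for the interaction. With each library left out in turn, genes called ranged over 0 to 0 for THC in controls, 0 to 3 for THC in mutants, 0 to 2 for the mutation under THC, 0 to 6 under vehicle and 0 to 10 for the interaction. The median member log2 fold change ranged over -0.06 to 0.09 for THC in controls, -0.62 to 2.59 for THC in mutants, 0.0469 to 3.33 for the mutation under THC, -0.09 to 0.70 under vehicle and -0.46 to 2.24 for the interaction. Leaving out mutant THC 3 gave the lowest values for THC in mutants (-0.62), the interaction (-0.46) and the mutation under THC (0.0469), and leaving out mutant vehicle 3 gave -0.09 for the mutation under vehicle. The cause of the differences between tests was not tested. No paired analysis was possible because the labels' numbers do not recur between groups. Depth limits Drd3, at 1 to 7 counts per library, and the low levels of Six3, Isl1, Ido1 and Sh3rf2 in most libraries.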
